A study of Mus musculus with 12 samples.

Results

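The genes described here are 37 genes of DNA repair and of the replication checkpoint, found by their symbols among the 55471 genes of an RNA-seq table of mouse colonic crypts. They comprise 12 genes of homologous recombination, 7 of the Fanconi pathway and its helicases, 3 of end joining, 8 of base excision and single-strand break repair, 4 of mismatch repair and 3 of the replication checkpoint. All 37 passed the filter on low counts and were among the 14610 genes tested. Crypts were taken from 12 mice, 3 in each of 4 groups, with 1 library per mouse. The groups were CBPWTp53-floxed and CBPAAp53-floxed, which kept p53, and CBPWTp53ΔIEC and CBPAAp53ΔIEC, in which p53 was deleted in intestinal epithelial cells. All 4 groups carried floxed alleles of Trp53 on a C57BL/6J background, and the deletion was driven by Cre under the Villin promoter, which is active in intestinal epithelium and not in other cells of the gut wall. The p53-floxed mice came from the cross before Villin-Cre was bred in. Comparisons of p53-deleted with p53-floxed crypts therefore also compare mice of different crosses, with and without Cre. These differences cannot be told apart from the loss of p53. CBPAA mice carried, in every cell, a knock-in that replaces phosphorylated serines of the coactivator CBP with alanines, and CBPWT littermates carried the unaltered protein. The study's methods give female mice at 8 weeks of age unless stated otherwise. The study compared CBPAA with CBPWT mice with and without epithelial p53, and here the question was how the repair genes differed between those groups.

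DNA repair proteins work in pathways suited to the lesion. Homologous recombination mends double-strand breaks by copying the sister chromatid, so it operates once DNA has been replicated, whereas end joining religates broken ends throughout the cell cycle. The Fanconi pathway unhooks crosslinks at stalled forks, base excision removes damaged bases, mismatch repair corrects copying errors, and the kinases ATR and CHK1 with their adaptor Claspin slow replication when forks stall. In the colon, dividing cells lie in the lower crypt, and many recombination and checkpoint genes are transcribed mainly in cells that are replicating DNA. p53 is a transcription factor that acts when DNA is damaged, and promoters of cell cycle genes that are lowered when p53 is active often hold E2F, CHR or CCAAT elements.

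Because many members moved together with p53 deletion, the 250 bases before the transcription start were read from the RefSeq promoter table (GRCm38.p6), which held 31 of the 37 members. Rad54b, Xrcc2, Nbn, Rad50, Fancd2 and Exo1 had no entry. The letters searched, on both strands, were TTCCCGC for E2F with the variants TTCGCGC as well as TTGCCGC together with TTGGCGC as alternatives, TTTGAA or alternatively TTCGAA for CHR, and CCAAT for the element of that name. No letters of different elements overlapped in a member, and in Msh3 the pair of E2F matches overlapped each other. The windows below are written 5′ to 3′ on the gene's strand, with matched letters in capitals. Fancb, Neil3 and Brca1 are shown as members that hold different elements and passed the cutoff (adjusted p under 0.05 and a difference of over 0.5 on the log2 scale) with p53 deletion in CBPWT crypts, Bard1 as a member with a similar fold change that holds both E2F and CHR letters, and Msh3 as a member with E2F letters and little difference. They lie at chrX:164980342-164980591 (forward strand), chr8:53639066-53639315 (reverse), chr11:101551956-101552205 (reverse), chr1:71102973-71103222 (reverse) and chr13:92355004-92355253 (reverse).
Fancb: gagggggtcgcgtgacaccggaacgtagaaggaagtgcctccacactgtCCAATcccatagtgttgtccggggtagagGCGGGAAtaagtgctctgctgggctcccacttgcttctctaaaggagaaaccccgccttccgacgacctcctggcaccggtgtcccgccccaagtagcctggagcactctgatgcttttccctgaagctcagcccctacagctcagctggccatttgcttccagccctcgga
Neil3: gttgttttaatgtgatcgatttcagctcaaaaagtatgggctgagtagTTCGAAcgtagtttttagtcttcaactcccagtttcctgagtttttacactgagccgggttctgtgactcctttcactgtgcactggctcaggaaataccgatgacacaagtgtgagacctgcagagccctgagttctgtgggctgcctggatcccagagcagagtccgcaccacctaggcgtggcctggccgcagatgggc
Brca1: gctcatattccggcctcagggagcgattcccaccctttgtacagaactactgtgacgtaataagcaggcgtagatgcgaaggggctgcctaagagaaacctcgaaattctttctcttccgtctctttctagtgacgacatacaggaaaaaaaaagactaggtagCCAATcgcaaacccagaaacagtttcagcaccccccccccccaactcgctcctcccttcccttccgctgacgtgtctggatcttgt
Bard1: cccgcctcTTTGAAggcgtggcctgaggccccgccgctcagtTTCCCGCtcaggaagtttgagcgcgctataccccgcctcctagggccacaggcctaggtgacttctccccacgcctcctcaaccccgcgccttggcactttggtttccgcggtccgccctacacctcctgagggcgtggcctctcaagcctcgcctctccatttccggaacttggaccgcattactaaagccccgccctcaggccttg
Msh3: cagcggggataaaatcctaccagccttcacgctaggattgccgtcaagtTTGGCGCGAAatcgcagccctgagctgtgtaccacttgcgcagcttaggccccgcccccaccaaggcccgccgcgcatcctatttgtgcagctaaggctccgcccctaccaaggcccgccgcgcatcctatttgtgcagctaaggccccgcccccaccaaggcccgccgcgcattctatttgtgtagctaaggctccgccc

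E2F letters were found in 8 of the 31 members (25.8%), against 7.89% of the 32851 promoters of the table. CCAAT was found in 16 members (51.6%, against 33.8%) and CHR letters in 3 (9.68%, against 17.1%). Of the 9 members past the cutoff that had a promoter entry, Fancb alone held E2F letters, Neil3 alone held CHR letters, and Brca1, Clspn, Fancb, Rad51ap1 and Rad54l held CCAAT. The 7 other members with E2F letters were Bard1, Blm, Brca2, Fancm, Lig4, Msh3 and Xrcc6, and Atr and Bard1 held the remaining CHR letters. The median log2 fold change with p53 deletion in CBPWT crypts was 0.71 both in the members with E2F letters and in those without. These are matches of letters in a short window and show no binding.

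Gene counts summed to 11177430 in the shallowest library and to 18029125 in the deepest. Trp53 served as the check of the labels: its TPM (a level scaled to gene length and library size) lay between 23.3 and 33.5 in the 6 p53-floxed libraries and between 3.26 and 6.13 in the 6 p53-deleted ones, a log2 fold change of -2.64 in CBPWT and of -2.58 in CBPAA crypts (SE 0.22 each, adjusted p = 0.000375 and 0.000401 with edgeR's quasi-likelihood test). The summed TPM of 8 epithelial markers was 8846 to 12389, against 1.75 to 2.92 for 8 stromal, 1.30 to 2.03 for 5 endothelial (Cdh5 at 0 in every library) and 3.30 to 6.29 for 7 leukocyte markers. Of p53 targets, 6 of 14 passed the cutoff as lower in CBPWT crypts (0.856% of all genes did) and 2 of 14 in CBPAA crypts (0.0274%). They were Ccng1, Eda2r, Ephx1, Phlda3, Plk2 and Trp53inp1 in CBPWT crypts, and Eda2r and Ephx1 in CBPAA crypts. Cdkn1a, which encodes p21, was not among them. In each p53-deleted group 1 library stood apart: CBPWTp53ΔIEC replicate 1 and CBPAAp53ΔIEC replicate 3 were the lowest of their groups for Mki67, a marker of dividing cells. Mki67 TPM was 30.6, 107 and 95.5 in CBPWTp53ΔIEC and 75.7, 81.9 and 25.7 in CBPAAp53ΔIEC, against 12.9 to 31.2 in the p53-floxed libraries. Olfm4, a gene of intestinal stem cells, varied over a wide range in the p53-deleted mice (126, 4.45 and 0.264 TPM in CBPWTp53ΔIEC, and 48.7, 2.73 and 57.6 in CBPAAp53ΔIEC), with 9.53 in CBPAAp53-floxed replicate 2 and at most 0.204 in the other p53-floxed libraries. Trp53 was at 5.44 TPM in CBPWTp53ΔIEC replicate 1 and at 6.13 in CBPAAp53ΔIEC replicate 3, the highest of each group. By the numbers in the library names, these 2 libraries were the lowest of all. The other p53-deleted libraries were the highest, with the p53-floxed ones between. The deviations of the 2 from their group means correlated at 0.643. What the numbers stand for is not given in the labels, and their part in the results was not tested. Results whose count changes without either of these 2 libraries are given with all libraries and with that library left out. The 2 were left out in turn, not both together.

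In crypts with p53, most repair genes were transcribed at low levels. In CBPWTp53-floxed crypts 23 of the 37 members had a mean TPM under 3, and the lowest was Rad54b at 0.572 ± 0.0907 (SD, n = 3). The 14 members at or over 3 TPM were led by Msh6 (19.4 ± 0.459), Parp2 (16.8 ± 0.445), Lig3 (15.9 ± 1.12) and Nbn (15.5 ± 0.986), with Rad50, Parp1, Xrcc5, Lig4, Ogg1, Xrcc6 and Xrcc1 between 9.05 and 14.7. Msh6 stood above Parp2 in every library of the group, whereas Parp2, Lig3 and Nbn overlapped. Summed over all 37 members, TPM was 195 ± 5.46 in CBPWTp53-floxed, 184 ± 26 in CBPAAp53-floxed, 260 ± 69.3 in CBPWTp53ΔIEC and 246 ± 45 in CBPAAp53ΔIEC crypts (SD, n = 3 each). The SD between mice was larger with p53 deleted. In that sum the abundant genes outweigh the scarce ones: the 11 members past the cutoff in the first comparison added up to 17.1 ± 0.348 TPM in CBPWTp53-floxed and to 53.9 ± 21.3 in CBPWTp53ΔIEC.

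**Figure D1:**
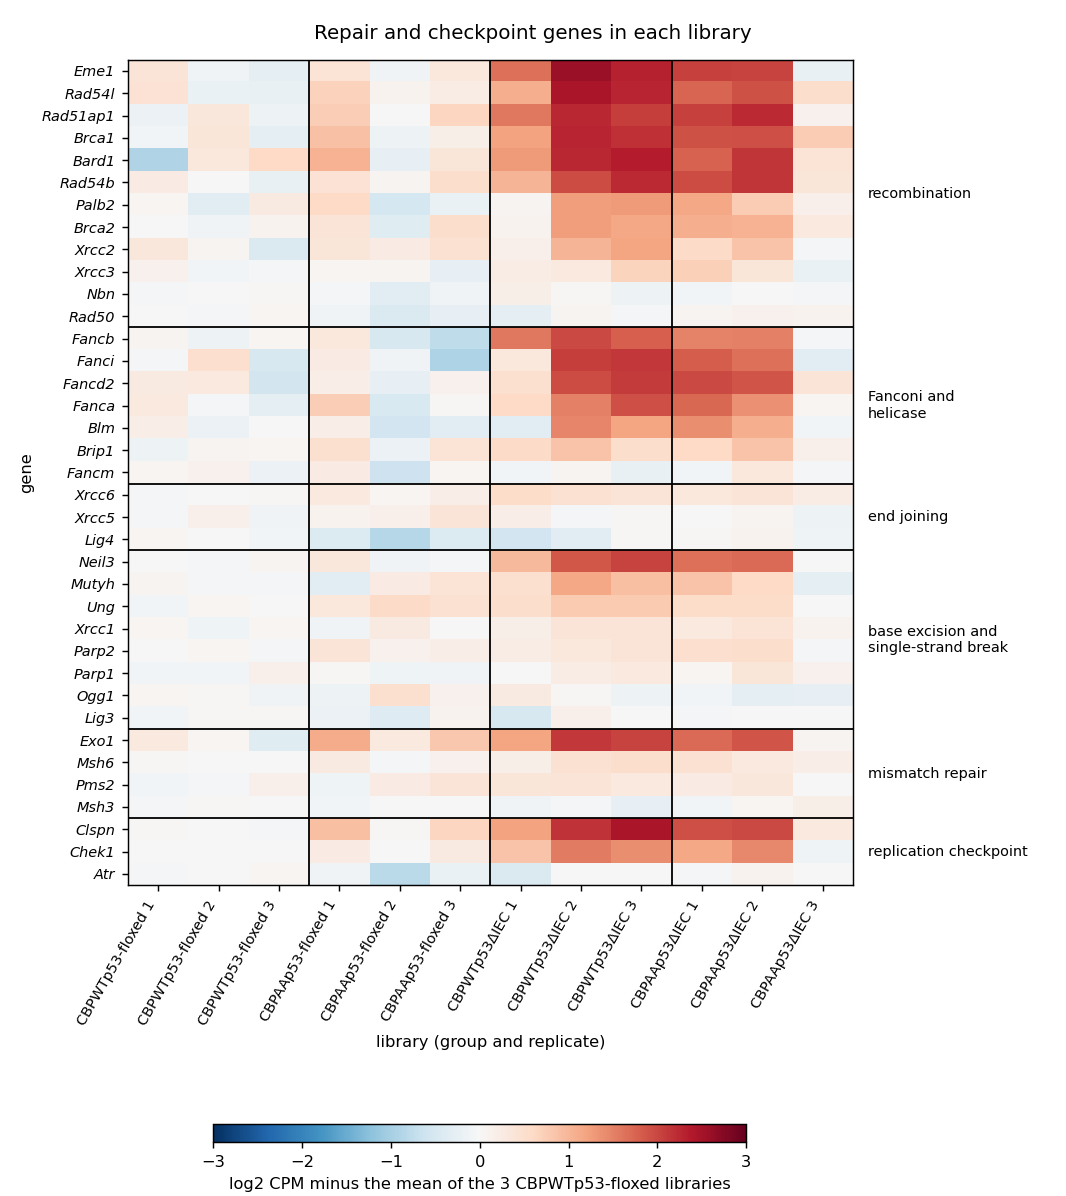
Heat map of the 37 members (rows, grouped by role and ordered by fold change) in the 12 libraries (columns, group and replicate). Colour gives the log2 CPM minus the mean of the 3 CBPWTp53-floxed libraries. Red in CBPWTp53ΔIEC 2 and 3 and CBPAAp53ΔIEC 1 and 2 marks the upper rows of the recombination, Fanconi and checkpoint blocks, while their lowest rows (Nbn, Rad50, Fancm and Atr) stay near white. The median of the 11 members past the cutoff was 2.12 and 2.08, and 1.74 and 1.91, in these 4 libraries. It was 1.18 in CBPWTp53ΔIEC 1 and 0.07 in CBPAAp53ΔIEC 3. The 11 were picked by the comparison of these same CBPWT libraries.

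With p53 deleted in CBPWT crypts, 11 of the 37 repair genes rose and none fell. They were Brca1, Rad51ap1, Rad54l, Rad54b and Eme1 of recombination, Fancb of the Fanconi pathway, the base excision glycosylases Ung and Neil3, the mismatch repair exonuclease Exo1, and the checkpoint genes Chek1 and Clspn. The rises ranged from a log2 fold change of 0.71 for Ung to 2.34 for Eme1, and 9 of the 11 were of more than 1.7. Of all genes tested, 3.15% passed the same cutoff (adjusted p under 0.05 in edgeR and a difference above 0.5 on the log2 scale), 2.29% as higher and 0.856% as lower, against 11 of 37 and 0 of 37 members. The median log2 fold change was 0.88 over the members and 0.01 over all genes. In 22 of the 37, and in 16.1% of all genes, every CBPWTp53ΔIEC library lay above every CBPWTp53-floxed library in CPM (counts scaled to library size). In TPM, Xrcc3, Fancd2, Xrcc1, Parp2, Msh6 and Pms2, which were among the 22, overlapped through CBPWTp53ΔIEC replicate 1. The adjusted p of the 11 lay close to the threshold, between 0.0288 and 0.0432, and the count depended on single libraries. It was 0 without any 1 of the CBPWTp53-floxed libraries or without CBPWTp53ΔIEC replicate 2 or 3. In those fits 18 to 23 members and 14.2% to 18.4% of all genes had an unadjusted p under 0.05 in edgeR. Without CBPAAp53-floxed replicate 3 the count was 3, and 1.69% of all genes passed. That library is in neither group compared and enters through the fit that all groups share. The count was 15 without CBPAAp53ΔIEC replicate 3 and 19 without CBPWTp53ΔIEC replicate 1, where 4.93% and 6.06% of all genes passed. With limma on log2(TPM + 1) it was 0, with 17 members and 14% of all genes at an unadjusted p under 0.05. The direction of the 11 was the same with each library left out. In bulk crypts, a larger share of cells that transcribe these genes and more of their RNA per cell cannot be told apart.

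Homologous recombination held 5 of the 11, out of 12 members, with a median log2 fold change of 1.47. The 16 other recombination genes, outside the 37, had a median of 0.17, 11 of them differed by less than 0.5 in size, and 1 passed the cutoff. Members and lists were chosen with earlier results of these data known, and the part of that choice in this gap was not tested. Brca1 (ENSMUSG00000017146, chr11:101488764-101551955, reverse strand), whose protein promotes the resection of broken ends, had a TPM of 1.04, 1.45 and 0.948 in CBPWTp53-floxed and of 2.16, 5.7 and 5.95 in CBPWTp53ΔIEC crypts. All 3 deleted libraries exceeded the floxed ones, replicate 1 by the least, and the log2 fold change was 1.98 (SE 0.39, adjusted p = 0.0288). Eme1 (ENSMUSG00000039055, chr11:94644996-94653964, reverse strand), the partner of the MUS81 nuclease that cuts branched DNA, went from 1.73, 1.22 and 1.08 TPM to 3.59, 8.65 and 7.92, a log2 fold change of 2.34 (SE 0.5, adjusted p = 0.034). This was the steepest rise of any member. Of its exonic bases 8.0% are shared with Lrrc59 on the opposite strand.

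Rad51ap1, Rad54l and Rad54b encode helpers of strand exchange: the first stimulates strand pairing, and the other two are motor proteins that act on DNA. Rad51ap1 (ENSMUSG00000030346, chr6:126923050-126939587, reverse strand) had 0.901, 1.33 and 0.965 TPM with p53 and 2.68, 5.41 and 5.23 without, a log2 fold change of 2.05 (SE 0.45, adjusted p = 0.0343). Rad54l (ENSMUSG00000028702, chr4:116094264-116123690, reverse strand) had 1.54, 0.991 and 1.01 TPM and 2.06, 6.63 and 6.54 TPM, respectively, and a log2 fold change of 2.1 (SE 0.41, adjusted p = 0.0289). For both genes the groups were apart, and replicates 2 and 3 of CBPWTp53ΔIEC lay well above replicate 1. Rad54b (ENSMUSG00000078773, chr4:11558922-11615805, forward strand), the scarcest of the members in CBPWTp53-floxed crypts, had 0.671, 0.555 and 0.492 TPM and 0.995, 2.4 and 3.24 TPM, and a log2 fold change of 1.94 (SE 0.44, adjusted p = 0.036). Its value is uncertain, because 35.8% of its exonic bases lie in Fsbp on the same strand, and 15.4% of those of Rad54l lie in Lrrc41 on the opposite strand.

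Other recombination members differed by less or varied more. Bard1, the obligate partner of BRCA1, had a fold change like that of Brca1, 1.95 (SE 0.51, adjusted p = 0.0569), with a larger error, and was the first member outside the cutoff by its adjusted p. Palb2 and Brca2, which act behind BRCA1 at the break, had log2 fold changes of 0.99 and 0.95 (adjusted p = 0.161 and 0.116), and Xrcc2 and Xrcc3, which act in strand exchange, of 0.88 and 0.42 (adjusted p = 0.137 and 0.311). Nbn and Rad50, subunits of the complex that senses broken ends, were the most abundant recombination members and had the smallest differences. Nbn (ENSMUSG00000028224, chr4:15957925-15992589, forward strand) had 14.6, 15.4 and 16.6 TPM with p53 and 14.3, 16.2 and 15.6 without (log2 fold change 0.03, SE 0.12, adjusted p = 0.927), with overlapping groups. For Rad50 the log2 fold change was -0.08 (SE 0.12, adjusted p = 0.752).

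**Figure D2:**
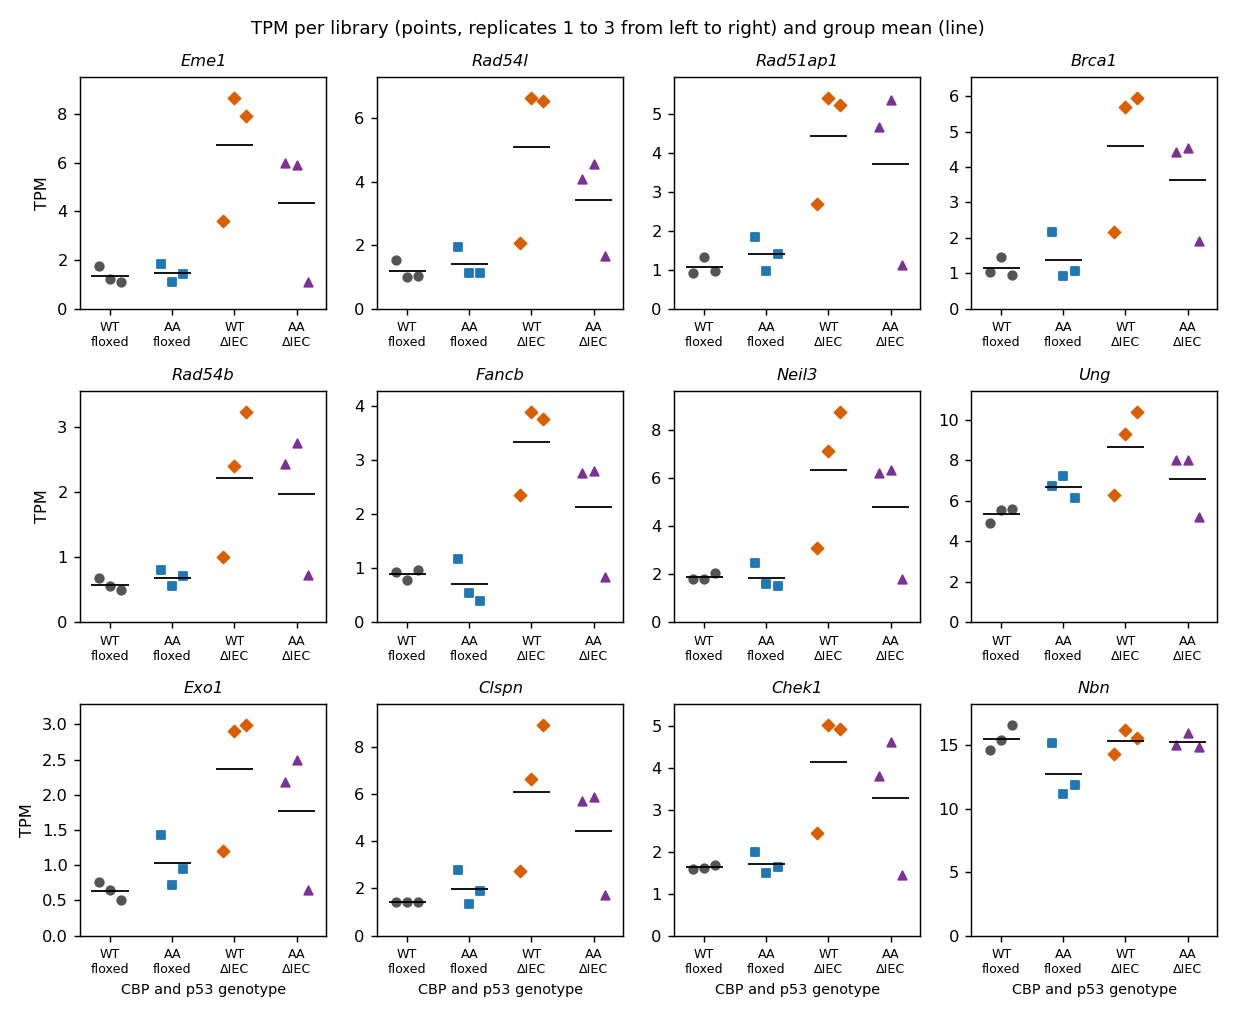
TPM (vertical axes, each from 0) of the 11 members past the cutoff in CBPWT crypts and of Nbn, for the 4 groups (horizontal axes, CBP genotype WT or AA and p53 floxed or ΔIEC). Points are single mice, and lines are group means. In the 11 genes all CBPWTp53ΔIEC points lie above the CBPWTp53-floxed points, and the third CBPAAp53ΔIEC point lies near the floxed groups, while Nbn stays between 11.2 and 16.6 TPM.

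Fanconi and helicase genes had the highest median of the 6 roles, 1.49, but 1 of 7 passed the cutoff. Fancb (ENSMUSG00000047757, chrX:164980592-164997272, forward strand), a subunit of the core complex that ubiquitinates FANCD2 and FANCI, had 0.926, 0.775 and 0.963 TPM in CBPWTp53-floxed and 2.35, 3.9 and 3.76 in CBPWTp53ΔIEC crypts, with a log2 fold change of 1.93 (SE 0.41, adjusted p = 0.0329). Its 3 deleted libraries were all at least 2.35 TPM, against at most 0.963 with p53. Fancd2 and Fanci, the ubiquitinated pair itself, had log2 fold changes of 1.72 (SE 0.48, adjusted p = 0.067) and 1.74 (SE 0.59, adjusted p = 0.123), and Fanca, a further core subunit, of 1.49 (SE 0.45, adjusted p = 0.0895). In these 3 genes CBPWTp53ΔIEC replicate 1 (0.675, 0.859 and 1.36 TPM) lay in or close to the range of the floxed libraries, while replicates 2 and 3 lay between 2.40 and 4.75 TPM. Exons of Fanci and Fanca overlap those of Polg (16%) and Zfp276 (10.5%) on the opposite strand. The helicases Blm and Brip1 had log2 fold changes of 1.0 and 0.67 (adjusted p = 0.217 and 0.126). Fancm (ENSMUSG00000055884, chr12:65075603-65132058, forward strand), the translocase that anchors the core complex on DNA, had 1.94, 2.08 and 1.74 TPM and 1.48, 2.06 and 1.83 TPM, and its log2 fold change was -0.07 (SE 0.22, adjusted p = 0.895). Core subunits outside the 37 did not share the values of Fanca and Fancb. The log2 fold changes of Fancc, Fance, Fancf, Fancg, Fancl and Faap100 were between -0.02 and 0.52. None of the 12 other Fanconi genes, whose median was 0.28, passed the cutoff. Here too, members and lists were chosen with earlier results of these data known.

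End joining was the role with the smallest differences: none of its 3 members passed the cutoff, and their median log2 fold change was 0.06. Xrcc6 (ENSMUSG00000022471, chr15:81987835-82040085, forward strand), a subunit of the Ku ring that caps broken ends, had 9.07, 9.55 and 10.2 TPM with p53 and 11.6, 13.3 and 14.2 without. The groups were apart and the adjusted p was under the threshold (log2 fold change 0.47, SE 0.11, adjusted p = 0.0352), so Xrcc6 missed the cutoff by its fold alone. With it, 12 members were under the threshold on the adjusted p by itself, against 3.72% of all genes. Xrcc5 (ENSMUSG00000026187, chr1:72307421-72394952, forward strand), the other Ku subunit, had 12.6, 14.8 and 12.9 TPM and 12.5, 13.2 and 15.4 TPM, a log2 fold change of 0.06 (SE 0.13, adjusted p = 0.822). Lig4, the ligase of this pathway, had the lowest value of all members, -0.26 (SE 0.16, adjusted p = 0.376), with 12.5, 12.2 and 12 TPM in the floxed and 6.71, 9.92 and 14 TPM in the deleted crypts. In TPM the floxed libraries of Lig4 nearly coincided and the deleted ones lay on both sides of them. In log2 CPM minus the floxed mean, the floxed libraries were at 0.0673, 0.0041 and -0.0714. The deleted ones were at -0.563, -0.312 and 0.0363, so none lay above the floxed range.

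In base excision and single-strand break repair 2 of 8 members rose, both of them glycosylases, and the median was 0.32. Neil3 (ENSMUSG00000039396, chr8:53586867-53639065, reverse strand), which removes oxidised bases and acts at replication forks, went from 1.81, 1.79 and 2.05 TPM to 3.07, 7.13 and 8.75 TPM, a log2 fold change of 1.73 (SE 0.39, adjusted p = 0.0377). Ung (ENSMUSG00000029591, chr5:114130386-114139323, forward strand), which removes uracil from DNA, had 4.88, 5.53 and 5.59 TPM with p53 and 6.28, 9.32 and 10.4 without (log2 fold change 0.71, SE 0.16, adjusted p = 0.0342). Ung was the one member past the cutoff that was above 3 TPM in CBPWTp53-floxed crypts, and its lowest deleted library was only slightly above its highest floxed one. Mutyh, a glycosylase that acts on adenine paired with oxidised guanine, had a log2 fold change of 0.95 (SE 0.33, adjusted p = 0.123). Ogg1 (ENSMUSG00000030271, chr6:113326972-113335068, forward strand), the glycosylase for oxidised guanine itself, had 10.4, 10.5 and 9.86 TPM and 10.1, 10.7 and 10.4 TPM (log2 fold change 0.06, SE 0.18, adjusted p = 0.886). It is uncertain through an overlap of 10.6% of its exonic bases with Camk1 on the opposite strand. The scaffold Xrcc1, the poly(ADP-ribose) polymerases Parp1 and Parp2 and the ligase Lig3 had log2 fold changes between -0.09 and 0.32, with adjusted p of 0.181 at the least.

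In mismatch repair 1 of 4 members rose, and in the replication checkpoint 2 of 3. Exo1 (ENSMUSG00000039748, chr1:175880581-175913489, forward strand), the exonuclease that removes the mismatched strand and also resects breaks, had 0.758, 0.653 and 0.498 TPM and 1.2, 2.9 and 2.99 TPM, and a log2 fold change of 1.89 (SE 0.43, adjusted p = 0.0373). The recognition subunits Msh6 and Msh3 and the endonuclease subunit Pms2 had smaller values, 0.39, -0.13 and 0.35 (adjusted p = 0.0825, 0.531 and 0.262). Msh3 (ENSMUSG00000014850, chr13:92211872-92355003, reverse strand) had 3.93, 4.26 and 4.3 TPM in the floxed and 3.16, 4.08 and 3.94 TPM in the deleted group, which overlapped.

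Clspn (ENSMUSG00000042489, chr4:126556935-126593903, forward strand), the adaptor through which ATR activates CHK1, had 1.43, 1.42 and 1.42 TPM with p53 and 2.73, 6.65 and 8.94 TPM without, a log2 fold change of 2.08 (SE 0.43, adjusted p = 0.034). Chek1 (ENSMUSG00000032113, chr9:36708482-36727065, reverse strand), the effector kinase, had 1.58, 1.61 and 1.68 TPM and 2.44, 5.01 and 4.93 TPM, and a log2 fold change of 1.35 (SE 0.33, adjusted p = 0.0432). For both, the floxed libraries were nearly equal, and deleted replicates 2 and 3 were far above replicate 1. Atr (ENSMUSG00000032409, chr9:95857597-95951781, forward strand), the kinase at the head of the checkpoint, had 1.64, 1.73 and 1.88 TPM and 1.05, 1.77 and 1.93 TPM (log2 fold change -0.13, SE 0.17, adjusted p = 0.697), with its lowest value in deleted replicate 1. The effector and the adaptor thus passed the cutoff, and the sensor kinase did not.

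**Figure D3:**
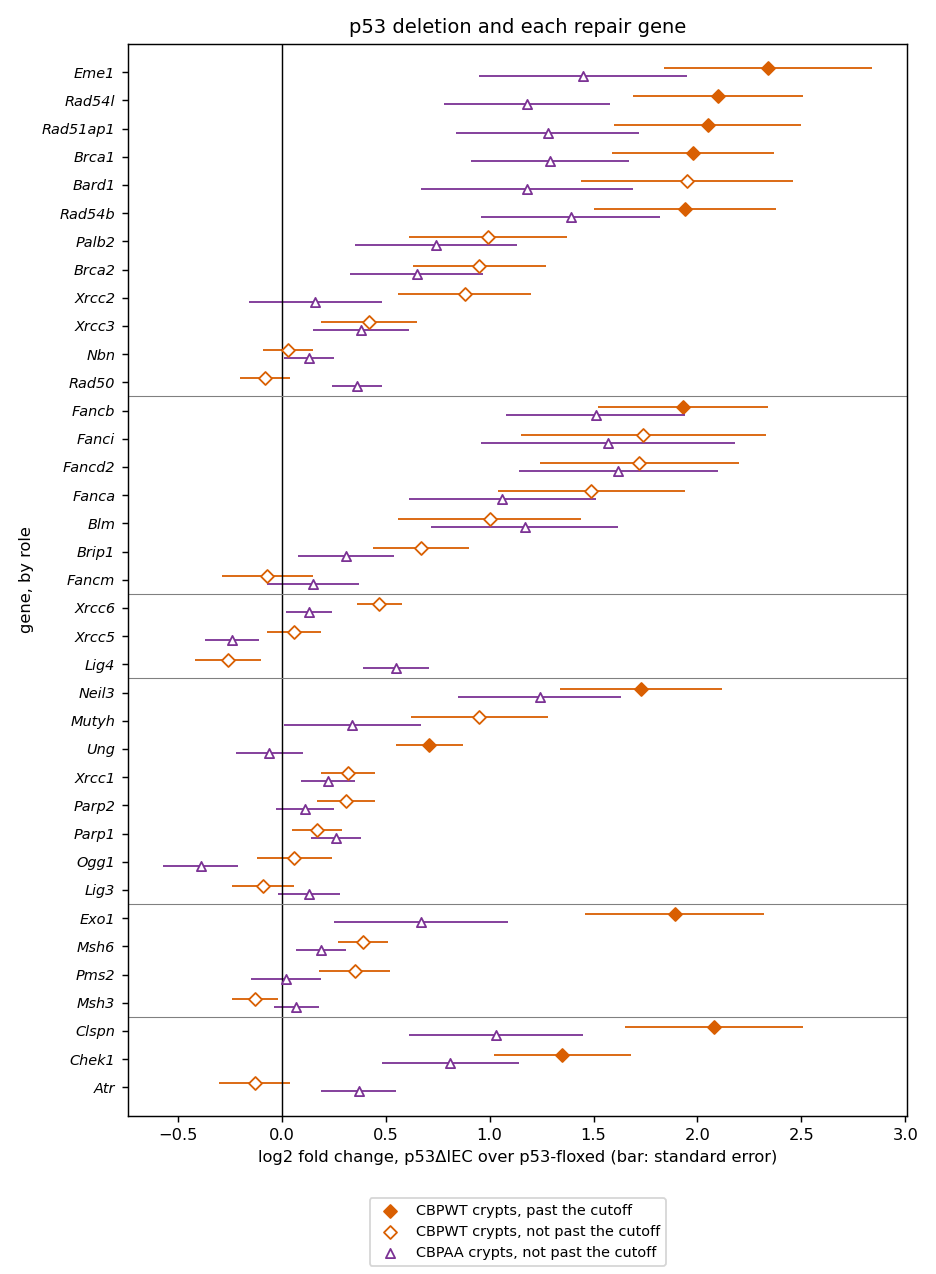
Log2 fold change of each member (rows, separated by role) with p53 deletion in CBPWT (diamonds) and CBPAA crypts (triangles), with the standard error as bars and filled symbols past the cutoff. The filled diamonds run from 0.71 to 2.34, and all 37 triangles are open and lie between -0.39 and 1.62.

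In CBPAA crypts p53 deletion left no member past the cutoff. The log2 fold changes were positive in 34 of 37 members, with a median of 0.38 against 0.01 over all genes. Of all genes tested, 0.0274% passed (all of them lower). With edgeR, 17 of the 37 members and 12.6% of all genes had an unadjusted p under 0.05, and the smallest adjusted p was 0.320; DESeq2 called 0 members too. The highest fold changes were those of Fancd2 (1.62, SE 0.48, adjusted p = 0.32), Fanci (1.57, SE 0.61, adjusted p = 0.359) and Fancb (1.51, SE 0.43, adjusted p = 0.32), followed by Eme1 (1.45, SE 0.5, adjusted p = 0.334) and Rad54b (1.39, SE 0.43, adjusted p = 0.32). In 5 members every CBPAAp53ΔIEC library lay above every CBPAAp53-floxed library in CPM, as in 7.86% of all genes: Rad50, Fancd2, Lig4, Parp1 and Atr. Xrcc5 was apart in the other direction (background 7.18%).

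The libraries behind that result were uneven. In Brca1 the 3 CBPAAp53-floxed libraries had 2.17, 0.921 and 1.06 TPM and the 3 CBPAAp53ΔIEC libraries 4.44, 4.53 and 1.9. In Eme1 the values were 1.82, 1.11 and 1.4 TPM and 5.98, 5.92 and 1.08 TPM. In both, 2 of the 3 deleted libraries were above all floxed ones, and replicate 3 lay among or below these. The same held in Rad51ap1 (1.84, 0.968 and 1.41 against 4.67, 5.36 and 1.13 TPM), Rad54l (1.93, 1.12 and 1.13 against 4.07, 4.55 and 1.64) and Rad54b (0.799, 0.553 and 0.702 against 2.44, 2.76 and 0.73). It held also outside recombination, in Fancb (1.16, 0.541 and 0.392 against 2.76, 2.8 and 0.833 TPM), Neil3 (2.46, 1.58 and 1.5 against 6.18, 6.34 and 1.81) and Exo1 (1.43, 0.712 and 0.941 against 2.18, 2.49 and 0.648). For the checkpoint genes, Chek1 had 1.99, 1.49 and 1.63 TPM in the floxed and 3.8, 4.61 and 1.44 TPM in the deleted group, and Clspn 2.77, 1.33 and 1.88 TPM and 5.71, 5.87 and 1.71 TPM. Ung had 6.73, 7.21 and 6.12 TPM in CBPAAp53-floxed and 8.01, 8.02 and 5.18 in CBPAAp53ΔIEC crypts. In TPM, replicates 1 and 2 thus lay slightly above the floxed libraries and replicate 3 below them. In log2 CPM minus the CBPWTp53-floxed mean, Ung was at 0.305, 0.572 and 0.462 in CBPAAp53-floxed crypts. It was at 0.553, 0.559 and -0.0052 in CBPAAp53ΔIEC crypts, with replicates 1 and 2 inside the floxed range. The log2 fold change, from counts, was -0.06 (SE 0.16, adjusted p = 0.888). Without CBPAAp53ΔIEC replicate 3, 326 genes (2.19% of those tested) and 10 members passed the cutoff, namely Brca1, Chek1, Clspn, Eme1, Fancb, Fancd2, Neil3, Rad51ap1, Rad54b and Rad54l. With any other library left out the count was 0 in edgeR, with 7 to 21 members and 6.26% to 16.9% of all genes at an unadjusted p under 0.05.

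Members with the smallest differences of their role in CBPWT crypts had log2 fold changes between -0.39 and 0.37 here. Nbn had 15.2, 11.2 and 11.9 TPM in CBPAAp53-floxed and 15, 16 and 14.9 in CBPAAp53ΔIEC crypts, Fancm 2.31, 1.11 and 1.65 and 1.83, 2.43 and 1.8, and Msh3 4, 3.83 and 3.5 and 4.04, 4.41 and 4.57. Their log2 fold changes were 0.13, 0.15 and 0.07 (adjusted p = 0.661, 0.797 and 0.807). The Ku genes had 12, 9.01 and 9.11 TPM and 12.3, 12.8 and 10.9 TPM (Xrcc6, log2 fold change 0.13, SE 0.11, adjusted p = 0.608) and 14.7, 13.6 and 14.7 TPM and 13.7, 14.6 and 11.7 TPM (Xrcc5, -0.24, SE 0.13, adjusted p = 0.448). Ogg1 had the lowest value of any member, -0.39 (SE 0.18, adjusted p = 0.404), from 9.37, 13.2 and 9.37 TPM to 9.93, 8.62 and 8.45 TPM, with CBPAAp53-floxed replicate 2 the highest. Atr went from 1.66, 0.902 and 1.26 TPM to 1.74, 1.91 and 1.72 TPM, a log2 fold change of 0.37 (SE 0.18, adjusted p = 0.402).

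The size of the p53 effect was not shown to differ between CBP genotypes for any member. The 11 members past the cutoff in CBPWT crypts had a median log2 fold change of 1.94 there and of 1.24 in CBPAA crypts, where they ranged from -0.06 to 1.51. The value was larger in CBPWT crypts in 11 of these 11, which were picked for passing there, and in 28 of all 37. In the interaction test, 0.00684% of all genes and 0 of 37 members passed the cutoff with edgeR, and the smallest adjusted p of a member was 0.482. An unadjusted p under 0.05 was found for 4 members and for 10.3% of all genes, about the same share. DESeq2 also called 0 members. The 4 were Lig4 (0.81), Ung (-0.77), Rad50 (0.44) and Xrcc6 (-0.34), where the log2 difference is the p53 effect in CBPAA minus that in CBPWT crypts. For Lig4, singled out after its values were seen, the effect was -0.26 in CBPWT and 0.55 in CBPAA crypts, and its interaction had an SE of 0.23 and an adjusted p of 0.482.

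Averaged over both CBP genotypes, with 6 libraries against 6, p53 deletion raised 14 of the 37 members and lowered none, while 2.77% of all genes passed as higher and 0.732% as lower. These were the earlier set without Ung and with Bard1 (1.57, SE 0.36, adjusted p = 0.0307), Fancd2 (1.67, SE 0.34, adjusted p = 0.0183), Fanca (1.27, SE 0.32, adjusted p = 0.0419) and Fanci (1.65, SE 0.42, adjusted p = 0.0467). The smallest adjusted p was that of Brca1 and Fancb (0.0117), with log2 fold changes of 1.63 (SE 0.27) and 1.72 (SE 0.3). The median of the members was 0.52. Fancd2 alone had all 6 deleted libraries above all 6 floxed ones in CPM (1.03% of all genes did), and no member had them all below (0.726%). In TPM Fancd2 was not apart: CBPWTp53ΔIEC replicate 1, at 0.675, lay within the floxed range of 0.396 to 0.712. With 1 library left out the count lay between 2, without CBPWTp53-floxed replicate 3, and 20, without CBPAAp53ΔIEC replicate 3. Of all genes, 0.705% and 6.52% passed in these fits. The count was 18 without CBPWTp53ΔIEC replicate 1 (7.18% of all genes). It was 7 without CBPAAp53-floxed replicate 3, CBPWTp53ΔIEC replicate 3 or CBPAAp53ΔIEC replicate 1 (1.27%, 1.13% and 1.13% of all genes). It was 8 without CBPWTp53-floxed replicate 1 or 2 or CBPAAp53ΔIEC replicate 2 (1.37%, 1.42% and 1.61%). Without CBPWTp53ΔIEC replicate 2 it was 9 (1.77%).

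**Figure D4:**
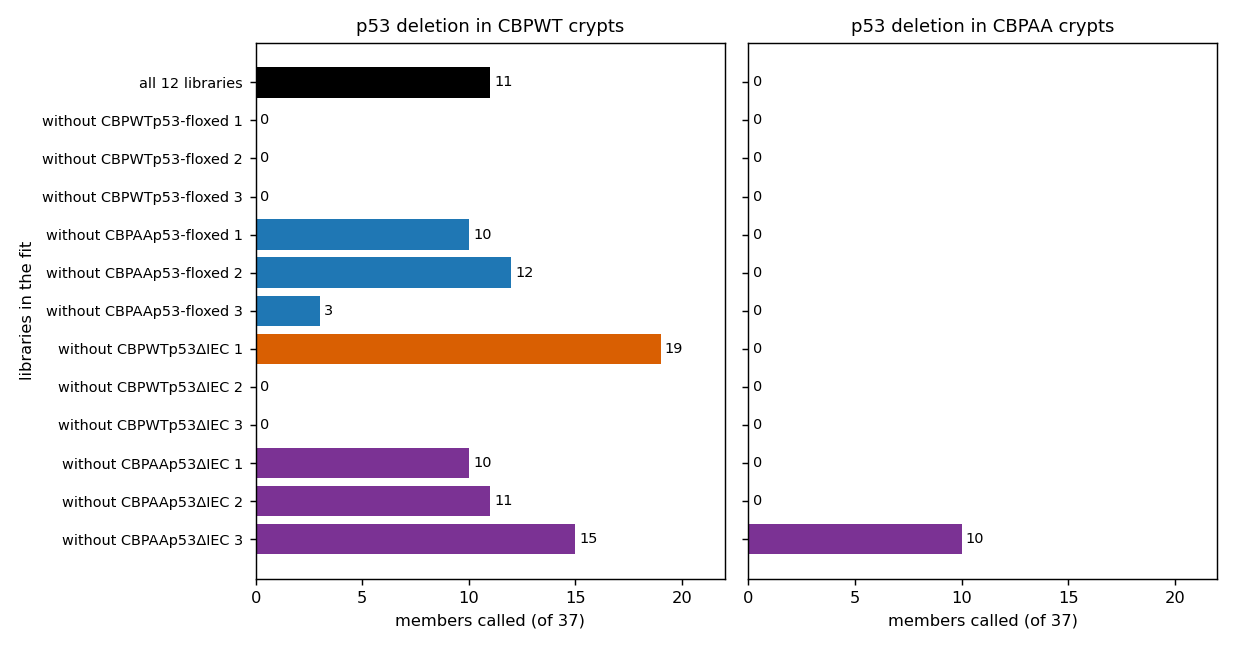
Number of the 37 members past the cutoff (horizontal axes) with p53 deletion in CBPWT crypts (left) and CBPAA crypts (right), in the fit of all 12 libraries (black) and in fits with 1 library left out (coloured by group). The count goes from 0 to 19 in CBPWT crypts and reaches 10 in CBPAA crypts only without CBPAAp53ΔIEC replicate 3.

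The CBPAA knock-in by itself moved no repair gene past the cutoff. These comparisons use the same libraries as those of p53 deletion. Between CBPAAp53-floxed and CBPWTp53-floxed crypts 0 of 37 members and 0 of 14610 genes passed with edgeR. Of the members 3 had an unadjusted p under 0.05, about the share of all genes that did (8.04%), the smallest adjusted p was 0.618, and DESeq2 called 0 members and 34 genes. The 3, Lig4, Ung and Rad50, are given as values only. Lig4 had 12.5, 12.2 and 12 TPM in CBPWTp53-floxed and 9.31, 6.09 and 7.62 in CBPAAp53-floxed crypts, where all 3 libraries were lower (log2 fold change -0.55, SE 0.16, adjusted p = 0.618). Ung was the reverse, with all 3 CBPAAp53-floxed libraries higher (0.45, SE 0.16, adjusted p = 0.618), and Rad50 had a value of -0.26 (SE 0.12, adjusted p = 0.618). The fold changes of all members lay between -0.55 and 0.8 (Exo1), with a median of 0.18 against 0.01 over all genes. Groups did not overlap in CPM for 6 members that were higher (Xrcc6, Parp2, Ung, Exo1, Chek1 and Clspn) and 4 that were lower (Nbn, Rad50, Lig4 and Atr), against 9.75% and 9.62% of all genes.

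With p53 deleted, CBPAA and CBPWT crypts also showed no member past the cutoff (0.00684% of all genes passed). The log2 fold changes of CBPAAp53ΔIEC over CBPWTp53ΔIEC were negative in 29 of 37 members, with a median of -0.16 against -0.01 over all genes. The lowest were Fancb (-0.69, SE 0.38, adjusted p = 0.985) and Eme1 (-0.66, SE 0.46, adjusted p = 0.985), and the highest was Lig4 (0.26, SE 0.16, adjusted p = 0.985). In CPM the groups did not overlap for Rad50, which was higher (4.76% of all genes were), and for Fancb and Xrcc6, which were lower (4.5%). No member had an unadjusted p under 0.05 in edgeR, and DESeq2 called 0 members. The 20 cell cycle genes described next were all negative too, with a median of -0.35 and 0 past the cutoff, 1 of them at an unadjusted p under 0.05. The 2 libraries that stood apart, 1 in each of these groups, are among the 6 compared, and without CBPAAp53ΔIEC replicate 3 or CBPWTp53ΔIEC replicate 1 the count was 0 as well.

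Cell cycle genes rose in the same comparison and in the same libraries as the repair genes. Of 20 cell cycle genes (among them Mki67, Pcna, the Mcm helicase subunits and mitotic cyclins), 19 passed the cutoff as higher with p53 deletion in CBPWT crypts, with a median log2 fold change of 1.73, and 0 in CBPAA crypts, with a median of 0.91 and 15 at an unadjusted p under 0.05. Library by library, the median log2 CPM of these 20 genes above the CBPWTp53-floxed mean was 1.09, 1.92 and 1.89 in CBPWTp53ΔIEC and 1.62, 1.62 and 0.27 in CBPAAp53ΔIEC. For the 11 repair genes past the cutoff it was 1.18, 2.12 and 2.08, and 1.74, 1.91 and 0.07. The 26 other repair genes had 0.18, 0.38 and 0.39, and 0.39, 0.38 and 0.02. In the CBPAAp53-floxed libraries the 20 genes were at 0.46, 0.15 and 0.24 and the 11 at 0.42, 0.02 and 0.32. The part of the cell cycle genes in the repair gene result was not tested, and the values are from the same libraries. Of markers of other crypt cells, 0 of 5 goblet and 0 of 5 colonocyte genes passed in either CBP genotype. The colonocyte gene Car1, a carbonic anhydrase that was chosen after its values were seen, passed in the averaged comparison (log2 fold change 0.62, SE 0.15, adjusted p = 0.0347), with log2 fold changes of 0.82 (SE 0.21, adjusted p = 0.0524) in CBPWT crypts, where the groups did not overlap in CPM, and 0.42 (SE 0.21, adjusted p = 0.424) in CBPAA crypts. Car4, of the same list, went the other way in CBPAA crypts, at -0.59 (SE 0.15, adjusted p = 0.32 in edgeR), with groups apart in CPM. In the averaged comparison 3 of the 5 colonocyte genes were positive and 2 negative, from -0.5 to 0.62, with a median of 0.06. There 0 were apart in CPM as higher and 1 as lower. The part of these genes in the repair gene result was not tested. The 5 stem cell genes summed to 39.9 to 53.1 TPM in p53-floxed and 56.4 to 162 TPM in p53-deleted libraries, without a gene past the cutoff in these comparisons. Olfm4 weighed heavily in these sums, with 126 TPM in CBPWTp53ΔIEC replicate 1 and 48.7 and 57.6 in CBPAAp53ΔIEC replicates 1 and 3. Without it, CBPWTp53ΔIEC replicate 1 would not lie above the floxed libraries. The median log2 fold change of the 5 was 0.27 in CBPWT and 0.26 in CBPAA crypts.

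**Figure D5:**
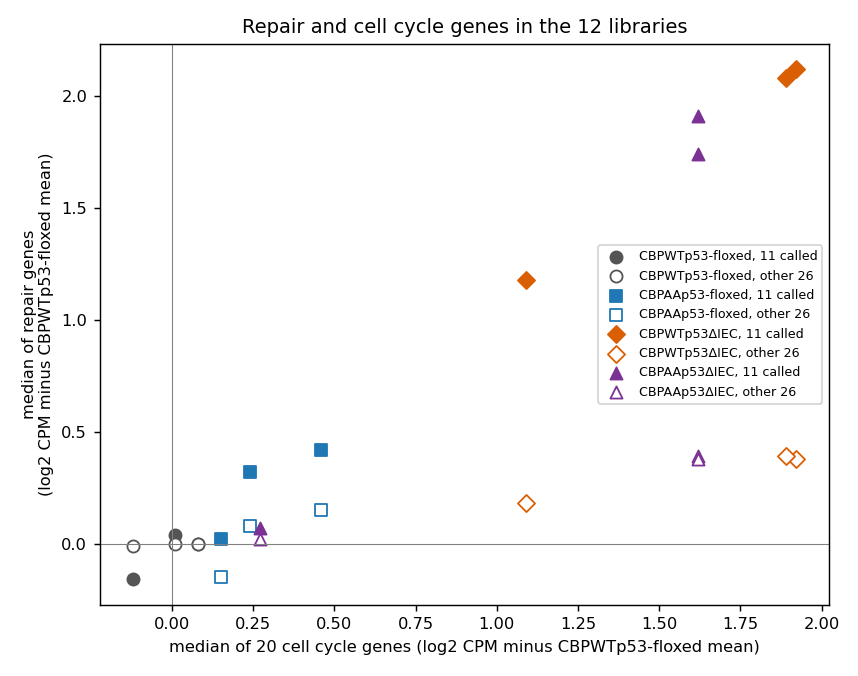
Median of the repair genes in each library (vertical axis) against the median of 20 cell cycle genes (horizontal axis), both in log2 CPM minus the CBPWTp53-floxed mean. Filled symbols are the 11 members past the cutoff in CBPWT crypts and open symbols the other 26, by group. The 11 were picked by the comparison of these same CBPWT libraries, so their height in CBPWTp53ΔIEC partly reflects that choice. The filled symbols run from -0.16 to 2.12 and the open ones from -0.15 to 0.39, and CBPAAp53ΔIEC replicate 3 lies with the floxed libraries.

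Further repair genes outside the 37 were taken from 8 lists of 100 genes, chosen like the members with earlier results of these data known. With p53 deletion in CBPWT crypts 8 of the 100 rose and 0 fell (2.29% and 0.856% of all genes did), with a median log2 fold change of 0.12, and in CBPAA crypts 0 passed the cutoff (17 at an unadjusted p under 0.05 in edgeR, median 0.11). Fen1 and Lig1, which trim and seal newly made DNA, were 2 of 15 other base excision genes, at 1.27 (SE 0.22, adjusted p = 0.0236) and 1.27 (SE 0.23, adjusted p = 0.0248). The checkpoint list gave 5 of 19: Timeless and Tipin, which protect forks (1.41 and 0.96), Rpa1 and Rpa2, which coat single-stranded DNA (0.77 and 1.05), and Topbp1, the activator of ATR (0.88). None passed among 12 other Fanconi genes, 9 other end joining genes, 4 other mismatch repair genes, 15 nucleotide excision genes and 10 genes of lesion bypass and direct reversal, where 6, 1, 1, 4 and 3 had an unadjusted p under 0.05 in edgeR.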

How the data were processed

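Crypt RNA of 12 mice was sequenced from mRNA libraries. The labels name a stranded mRNA kit, and the strand setting of the counting is not given in the sources used here, so genes that share exons with a neighbour are uncertain. The submitters' processing notes name fastp 0.20.0, FastQC 0.11.9, HISAT2 2.1.0, SAMtools 1.9 and featureCounts of Subread 2.0.1 with GRCm38. The authors deposited raw read counts per gene and library, without normalization, and the deposited TPM scale those reads to gene length and library. The 15 columns of the authors' own comparisons (fold changes and p-values) were not used. Rows without a symbol (3320) held 0.278% of reads.

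Counts were fitted in R 4.3.3 with edgeR 4.0.16 (filterByExpr at a minimum count of 10, TMM, robust quasi-likelihood fit of the 4 groups over all 12 libraries, so that all groups share 1 estimate of the spread). P-values were adjusted over 14610 genes by the Benjamini-Hochberg method. The cutoff required both an adjusted p under 0.05 and a difference of over 0.5 on the log2 scale, and standard errors were derived from the F statistic. Group overlap was judged on TMM-scaled CPM, and TPM can give a different overlap. Alternatives were DESeq2 1.42.0, its size factors in edgeR, no filter, at least 10 counts in every library, blocking on the replicate number, leaving out each library in turn, only the 2 groups compared, no fold cutoff, and limma 3.58.1 on log2(TPM + 1). The fits were tested on simulated counts. Gene positions are from GENCODE on GRCm38, and figures were drawn with matplotlib 3.10.9.

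Values in every library were given for members past the cutoff in a pairwise comparison and for those with the largest and smallest fold change in size of each role in CBPWT crypts. Other members are given by fold change, and the libraries of Lig4 were added after its values were seen. Pms2 occurs under 2 identifiers, of which the one that GENCODE names Pms2 was used. The members and gene lists were chosen with earlier results of these data known. Each library is a separate mouse by the labels, and p-values measure the spread between these mice. Of the other repair genes past the cutoff, 1 is not reported here by name.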

Additional observations from a re-analysis of the deposited data

How the results depend on the processing

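For p53 deletion in CBPWT crypts (11 members called, median log2 fold change 0.88), DESeq2 called 15 members, the 2 groups alone 13 and no fold cutoff 12, each including all 11. Without a filter on low counts 4 were called (Chek1, Fancb, Rad54b and Ung), where 27142 genes were tested and 1.53% of them passed. With limma on log2(TPM + 1), where the pseudocount compresses changes of scarce genes, 0 were called (17 at an unadjusted p under 0.05) and the median was 0.50. With the replicate number as a block 0 were called in edgeR (23 at an unadjusted p under 0.05). The same number did not pair the mice: 3 of 18 same-number pairs of libraries had deviations correlated above 0.1 (from -0.526 to 0.548), and 3 of 12 libraries correlated best with their own number. With 1 library left out the count ran from 0 to 19 and the median from 0.67 to 1.11. Over all genes the 460 calls became 867 with DESeq2, 723 with the 2 groups alone, 32 with the block, 14 with limma and 1 to 906 with 1 library left out. In CBPAA crypts the count of members ran from 0 to 10 and the median from 0.35 to 0.61 with 1 library left out, and the 4 genes called became 57 with DESeq2 and 1 to 326 with 1 library left out. Averaged over CBP genotypes, the 14 members became 2 (Brca1 and Fancb) with limma and 2 to 20 with 1 library left out, and the median ran from 0.41 to 0.65. The 511 genes called there became 770 with DESeq2, 304 with the block, 122 with limma and 105 to 1073 with 1 library left out. For the interaction DESeq2 called 28 genes in place of 1, and for CBPAA against CBPWT crypts with p53 34 in place of 0. The counts of CBPAA against CBPWT crypts, with and without p53, and of the interaction stayed at 0 members with each library left out, and their medians ran from 0.05 to 0.21, from -0.40 to -0.01 and from -0.44 to -0.10.

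Members near 0 changed sign, none of them past the cutoff. Nbn in CBPWT crypts was -0.02 with limma and -0.06 to 0.11 with 1 library left out. Fancm ran from -0.16 to 0.01 in CBPWT and from -0.09 to 0.34 in CBPAA crypts, Xrcc5 from -0.01 to 0.15 and Ogg1 from -0.06 to 0.16 in CBPWT crypts. Ung in CBPAA crypts was 0.05 with limma and -0.15 to 0.10 with 1 library left out. Over the 18 members with values in every library, 603 values kept direction and call, 94 lost the call, 10 gained it and 11 changed sign. Bard1 and Fancb had as few as 9 and 6 reads in a library, the fewest of the members, and were not tested where every library had to hold 10.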
